A study of Mus musculus with 6 samples.

Results

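The genes described here are 41 components of the NF-kB pathway, measured in cultured mouse muscle cells treated with rhMG53 or with BSA. They were taken by symbol from a table of 27179 genes, and all 41 were found. They comprise 5 subunits of the transcription factor, 5 inhibitors and related cofactors, 4 kinases, 9 receptors, 9 adaptors, 3 feedback genes and 6 target genes. The cells were primary satellite cells, the stem cells of muscle, taken from hindlimbs of C57BL/6 mice that were genotyped WT. The labels call the cells ageing and give no age. They grew in DMEM with FBS and bFGF. The treated group, rhMG53 (called hMG53 in the labels), received recombinant human MG53 protein for 72 h, and the control group received bovine serum albumin (BSA) over that time. MG53 (TRIM72) is made by skeletal and cardiac muscle and is known for sealing damaged cell membranes. Each group held 3 libraries, all labelled Day 3, with 17374151 to 19827476 counts in rhMG53 libraries and 17898768 to 22738745 in BSA libraries. The replicates are described as biological, though no label names the mouse or dish behind each library, so p-values here reflect only how much these 6 libraries varied, whether by biology or by handling. Markers of differentiated muscle were abundant, with the muscle creatine kinase gene Ckm at 443.5 to 524.2 CPM (counts scaled to a common library total) in rhMG53 libraries and 434.2 to 514.9 CPM in BSA libraries, while the satellite cell factor Pax7 stood at 7.47 to 9.91 CPM with rhMG53 and 9.32 to 11.2 CPM with BSA. The embryonic myosin gene Myh3 was lowest in rhMG53 replicate 2, at 17676 CPM, against 21228 and 22632 CPM in the other rhMG53 libraries and 21863 to 22774 CPM in BSA libraries.

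NF-kB is a family of dimeric transcription factors that wait in the cytoplasm, bound by IkB proteins. Receptors for TNF, interleukin 1 and microbial products recruit adaptors and ubiquitin ligases, which activate the IKK kinases. These kinases mark the IkB proteins for destruction, and the freed dimers enter the nucleus and switch on inflammatory genes together with the genes of their own inhibitors. A second, slower branch runs through the kinase NIK and the subunits Nfkb2 and Relb. In muscle, the pathway is known for its part in wasting and in the balance between proliferation and differentiation of myoblasts. Most of this control acts on proteins, which transcript counts do not measure.

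The motif that NF-kB binds was looked for at the starts of these genes. The kappa B consensus was searched on both strands of RefSeq windows (build GRCm38.p6) of 300 bases, from 250 bases before to 50 after the start. Windows were at hand for 34 of the 41 genes, and 13 of these 34 (38.2%) had a match in at least 1 window, against 9.55% of all 27025 genes with a window. The 7 genes with no window were Nfkb1, Relb, Nfkbiz, Ikbkb, Tlr4, Cd14 and Vcam1. The 2 full windows below belong to the feedback inhibitor Nfkbia and the subunit Nfkb2, and the shorter runs give single matches with 10 bases on either side. Sequences run 5′ to 3′ along the gene's strand, and capitals mark the match or overlapping matches. A match is a run of letters and not a measured binding site.
Nfkbia, chr12:55492598-55492897, minus strand: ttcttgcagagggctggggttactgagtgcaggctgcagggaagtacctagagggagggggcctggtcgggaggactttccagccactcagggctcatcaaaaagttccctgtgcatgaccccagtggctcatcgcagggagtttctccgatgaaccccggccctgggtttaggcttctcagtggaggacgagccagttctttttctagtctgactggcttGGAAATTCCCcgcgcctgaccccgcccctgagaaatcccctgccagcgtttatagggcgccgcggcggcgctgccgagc
Nfkb2, chr19:46304487-46304786, plus strand: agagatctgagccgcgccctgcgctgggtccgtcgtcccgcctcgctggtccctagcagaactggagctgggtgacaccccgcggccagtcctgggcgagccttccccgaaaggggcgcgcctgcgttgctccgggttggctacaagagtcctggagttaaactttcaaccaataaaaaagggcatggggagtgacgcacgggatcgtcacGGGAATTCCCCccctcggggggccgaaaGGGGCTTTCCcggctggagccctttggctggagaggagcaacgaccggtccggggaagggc
Rel, match at chr11:23771051-23771061, minus strand: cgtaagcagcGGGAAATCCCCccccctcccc
Nfkbie, match at chr17:45555594-45555603, plus strand: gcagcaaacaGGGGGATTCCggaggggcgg
Tnfaip3, match at chr10:19015413-19015422, minus strand: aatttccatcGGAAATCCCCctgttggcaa
Tnip1, match at chr11:54962987-54962998, minus strand: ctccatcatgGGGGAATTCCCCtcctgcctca
Tlr2, match at chr3:83841771-83841781, minus strand: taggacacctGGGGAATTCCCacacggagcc

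All 41 genes had enough counts to be tested, and none passed the test. In edgeR's quasi-likelihood test, adjusted over 13769 genes, 0 of the 41 passed (lowest adjusted p = 0.946), where 3 genes, 0.0218% of those tested, passed over the whole table. At an unadjusted p under 0.05, 0 members were higher with rhMG53 (2.98% of all tested genes) and 1 was lower, the kinase gene Ikbkb (2.22% of all tested genes). DESeq2 and limma voom also called 0 members, with 0 and 1 at an unadjusted p under 0.05. The rhMG53 libraries lay above all BSA libraries for 2 members, Nfkbie and Tnfaip2 (5.95% of all tested genes), and below them for 2, Ikbkb and Birc2 (4.83%). Log2 fold changes (rhMG53 over BSA) ranged from -0.40 for Rel to 0.30 for Tlr2, with a median of 0.03, against 0.00 over all tested genes. They were positive for 26 members, 63.4%, against 50.5% of all tested genes. Without rhMG53 replicate 1, and likewise without BSA replicate 1, 22 of the 41 were positive.

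These counts set narrow limits for most members. The 95% interval of the log2 fold change lay wholly between -0.5 and 0.5, a 1.41-fold difference either way, for 34 of the 41. The other 7 were Rel, Traf1, Cd14, Tlr2, Il1r1, Ptges and Icam1, for which these data do not exclude a larger difference. Standard errors ran from 0.0574 for Tnip1 to 0.355 for Traf1, whose 6 libraries held 96 counts in all. Libraries of the same group differed by more than 2 times the counting error for 11 members.

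**Figure D1:**
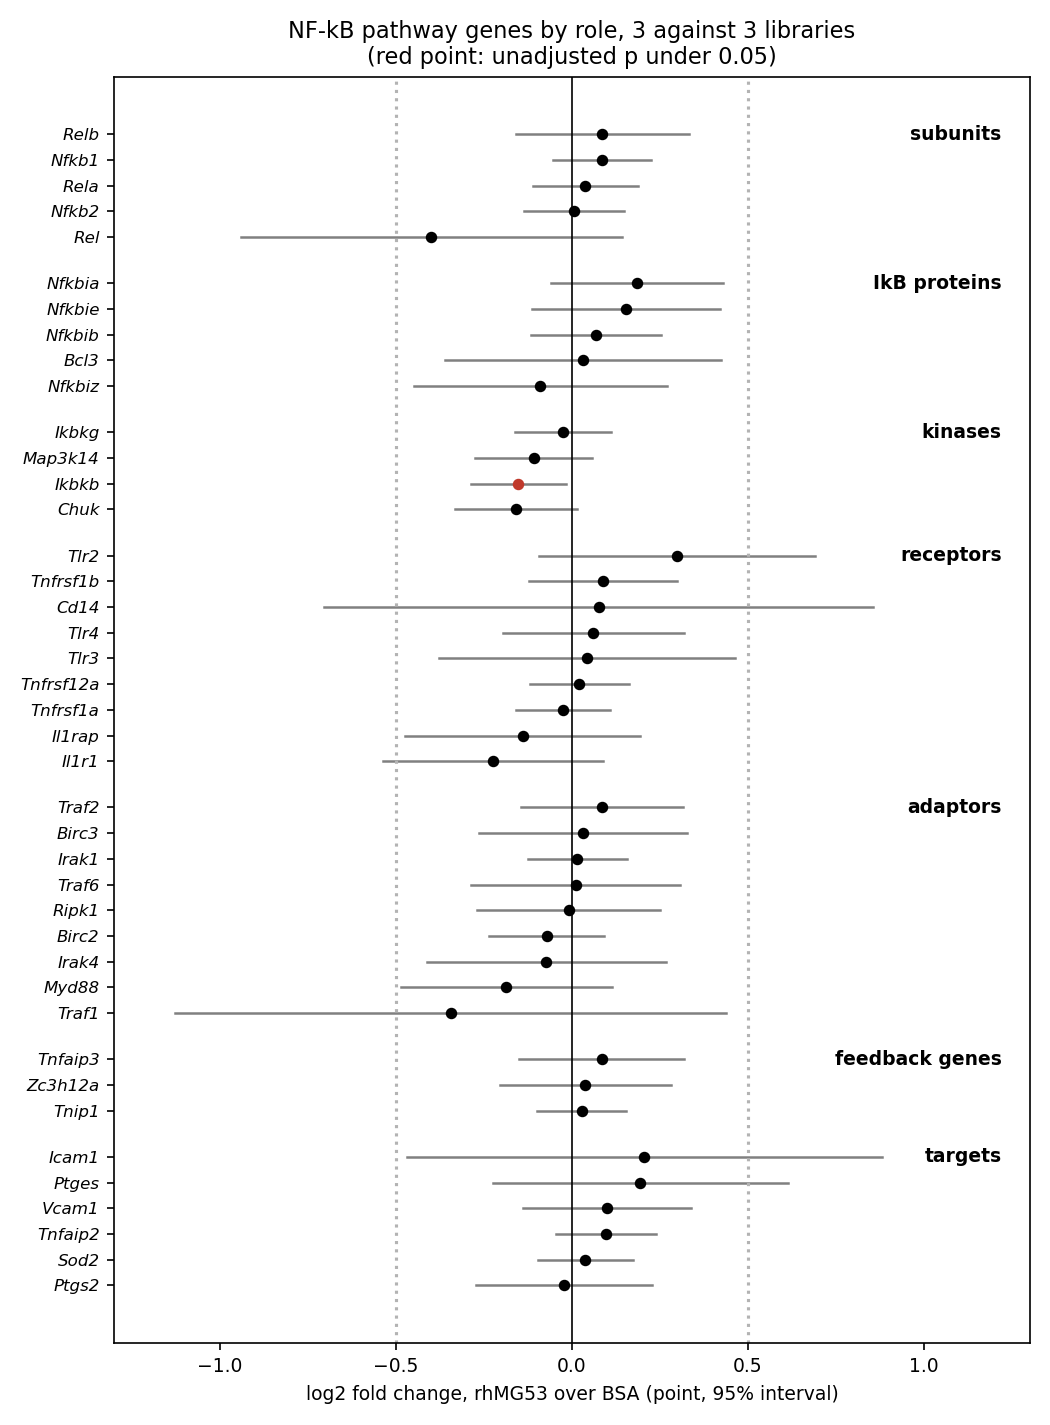
Log2 fold change of each of the 41 genes, rhMG53 over BSA, with its 95% interval, grouped by role (3 libraries per group). The interval excludes 0 for Ikbkb alone, and dotted lines mark -0.5 and 0.5.

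The subunits were led by Rela and Nfkb2. Per kb of transcript, Rela, the main activating subunit, averaged 22.1 ± 1.61 CPM in rhMG53 libraries and 21.5 ± 0.311 CPM in BSA libraries (SD, n = 3 each). Nfkb2, the precursor subunit of the NIK branch, averaged 19.6 ± 0.649 with rhMG53 and 19.5 ± 1.07 with BSA on that scale. Nfkb1, the partner of Rela in the classical dimer, followed with 10.9 ± 0.294 (rhMG53) and 10.3 ± 0.393 (BSA), and Relb, the partner of Nfkb2, with 9.59 ± 1.13 (rhMG53) and 9.07 ± 1.08 (BSA). Rel, a subunit best known in lymphocytes, was far lower, at 0.469 ± 0.161 with rhMG53 and 0.610 ± 0.145 with BSA. Rela made up 35.3 ± 2.36% of the summed level of the 5 subunits per kb with rhMG53 and 35.3 ± 1.29% with BSA, and Rel made up 0.747 ± 0.251% with rhMG53 and 1.002 ± 0.260% with BSA. With the union of all annotated exons as the length, chosen after the data were seen, Nfkb1 (3.63 CPM per kb over all libraries) came below Relb (5.30), so the order of these 2 rests on the length used. Rela stood at 19.3 and Nfkb2 at 13.4 with that length, so the percentages above rest on the length too.

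**Figure D2:**
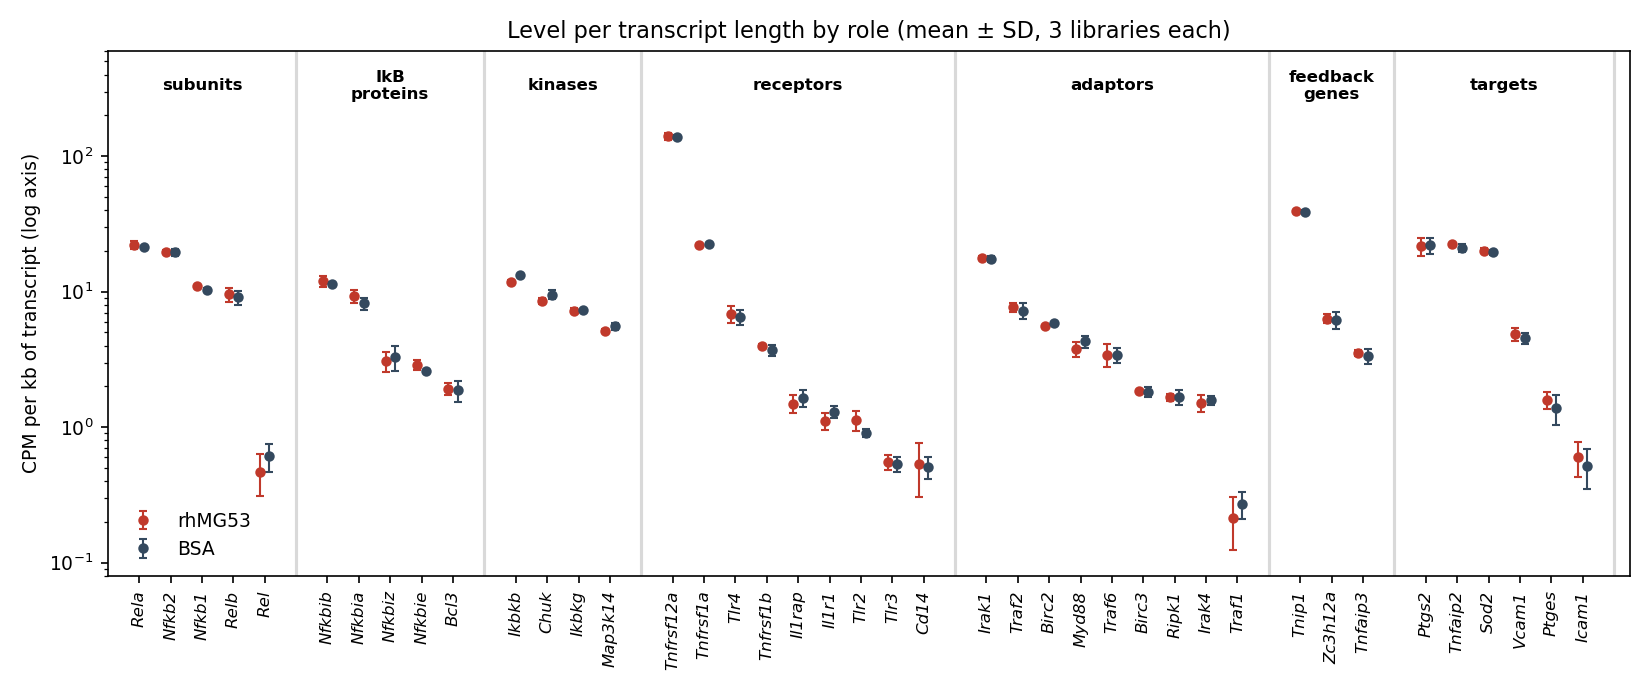
Level of each gene in CPM per kb of its longest principal transcript, on a log axis, as mean ± SD of 3 libraries in rhMG53 (left, red) and BSA (right, blue). Tnfrsf12a is the highest, near 140 CPM per kb in both groups, and Traf1 the lowest.

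Rela (chromosome 19, 5637442 to 5648134, in GRCm38.p6 as are all coordinates here) was at 58.9, 56.4 and 64.9 CPM with rhMG53 (replicates 1, 2 and 3, the order used throughout) and at 59.4, 58.2 and 57.9 CPM with BSA. The groups overlapped, and the log2 fold change was 0.04 (SE 0.0674, interval -0.11 to 0.19). Nfkb1 (chromosome 3, 135584655 to 135691969) was at 43.7, 45.4 and 46.1 CPM with rhMG53, against 44.3, 41.3 and 41.7 CPM with BSA. Its 2 highest libraries were rhMG53 replicates 2 and 3, but BSA replicate 1 lay above rhMG53 replicate 1. The log2 fold change was 0.09 (SE 0.0630, interval -0.05 to 0.22). Nfkb2 (chromosome 19, 46300994 to 46312400), whose windows hold several motif matches, was at 63.7, 61.4 and 59.7 CPM with rhMG53 and at 57.8, 61.9 and 64.5 CPM with BSA. These ranges nested, with a log2 fold change of 0.01 (interval -0.14 to 0.15). Relb ranged from 18.4 to 23.1 CPM with rhMG53 and from 17.4 to 22.1 CPM with BSA (log2 fold change 0.09). Rel was at 3.03, 2.61 and 4.87 CPM with rhMG53 and at 5.56, 4.69 and 3.41 CPM with BSA. The groups overlapped widely. Its log2 fold change of -0.40 had an interval of -0.94 to 0.14.

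None of the 5 inhibitors and cofactors passed, and 4 of the 5 log2 fold changes were positive. Nfkbia encodes IkB alpha, the inhibitor that NF-kB resupplies soon after activation. Nfkbia (chromosome 12, 55489409 to 55492647) was at 15.4, 15.7 and 12.9 CPM with rhMG53, against 12.8, 11.7 and 14.3 CPM with BSA. Replicates 1 and 2 of rhMG53 were the highest of the 6 libraries, while rhMG53 replicate 3 fell among the BSA libraries. The log2 fold change was 0.18 (SE 0.110, interval -0.06 to 0.43, edgeR adjusted p = 0.965). Nfkbie, which encodes IkB epsilon and is also a known NF-kB target, was at 7.72, 6.53 and 6.78 CPM with rhMG53 and at 6.14, 6.44 and 6.37 CPM with BSA. The groups did not overlap, but rhMG53 replicate 2 lay only just above the highest BSA library, and the log2 fold change was 0.15 (interval -0.11 to 0.42, edgeR adjusted p = 0.978). Nfkbib, which encodes IkB beta, was the most abundant of the inhibitors per kb, at 11.99 ± 1.07 CPM with rhMG53 and 11.4 ± 0.442 CPM with BSA (log2 fold change 0.07). Nfkbiz and Bcl3 encode nuclear relatives that bind NF-kB on DNA. Nfkbiz, which encodes IkB zeta, ranged from 10.3 to 14.2 CPM with rhMG53 and from 10.3 to 15.7 CPM with BSA (log2 fold change -0.09). Bcl3 ranged from 3.18 to 3.88 CPM with rhMG53 and from 2.77 to 3.93 CPM with BSA (0.03).

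The 4 kinase genes all had negative log2 fold changes, and none passed. Ikbkb encodes IKK beta, the kinase of the classical branch. It was at 42.9, 40.7 and 43.7 CPM with rhMG53, against 46.7, 47.6 and 47.1 CPM with BSA. Every rhMG53 library lay below every BSA library. The log2 fold change was -0.15 (SE 0.0614, interval -0.29 to -0.02, unadjusted p = 0.0308 and adjusted p = 0.946 in edgeR), a level 0.90 times that with BSA. The unadjusted p was 0.0400 without rhMG53 replicate 3 and 0.0542 to 0.0816 without each other library. Ikbkb lies on chromosome 8 at 22659205 to 22706589. Chuk, which encodes IKK alpha, was at 29.5, 28.6 and 31.5 CPM with rhMG53 and at 30.3, 35.1 and 34.7 CPM with BSA, with the highest rhMG53 library between the BSA ones (log2 fold change -0.16, interval -0.33 to 0.01). Map3k14, which encodes NIK, was at 22.5, 21.0 and 22.0 CPM with rhMG53 and at 23.6, 24.8 and 22.2 CPM with BSA (-0.11, interval -0.28 to 0.06). Ikbkg, which encodes the scaffold NEMO, was the steadiest of the 4, with 47.7 to 51.4 CPM with rhMG53 and 49.2 to 51.0 CPM with BSA (-0.03, interval -0.16 to 0.11). Its exons share 418 bases with G6pdx on the opposite strand, and those of Nfkb2 share 299 with Psd, of Myd88 290 with Acaa1a and of Irak4 395 with Twf1. Larger overlaps were with Gm20319 for Il1rap (552 bases), AC114539.1 for Nfkb2 (531) and Gm47079 for the low Icam1 (511). The strand setting of the counting is not given in the sources used here, so reads from such partners cannot be told apart. Ripk1 (511 bases with Gm17084), Map3k14 (135) and Irak1 (71 with Mir5132) share exon bases with genes on the same strand, which no strand setting separates. Summed, the 4 kinases stood at 146.2, 138.0 and 145.2 CPM with rhMG53 and at 150.3, 158.5 and 153.3 CPM with BSA. These sums did not overlap, but they include Ikbkb, which did not overlap by itself. The sums of every other role overlapped, such as the subunits at 188.9 to 193.9 CPM with rhMG53 and 184.5 to 189.5 CPM with BSA. No list test was run on these sums. Per kb, Ikbkb was the highest of the 4, at 11.9 ± 0.441 CPM with rhMG53 and 13.2 ± 0.130 CPM with BSA, but with the union of exons as the length it was the lowest (2.35 over all libraries).

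**Figure D3:**
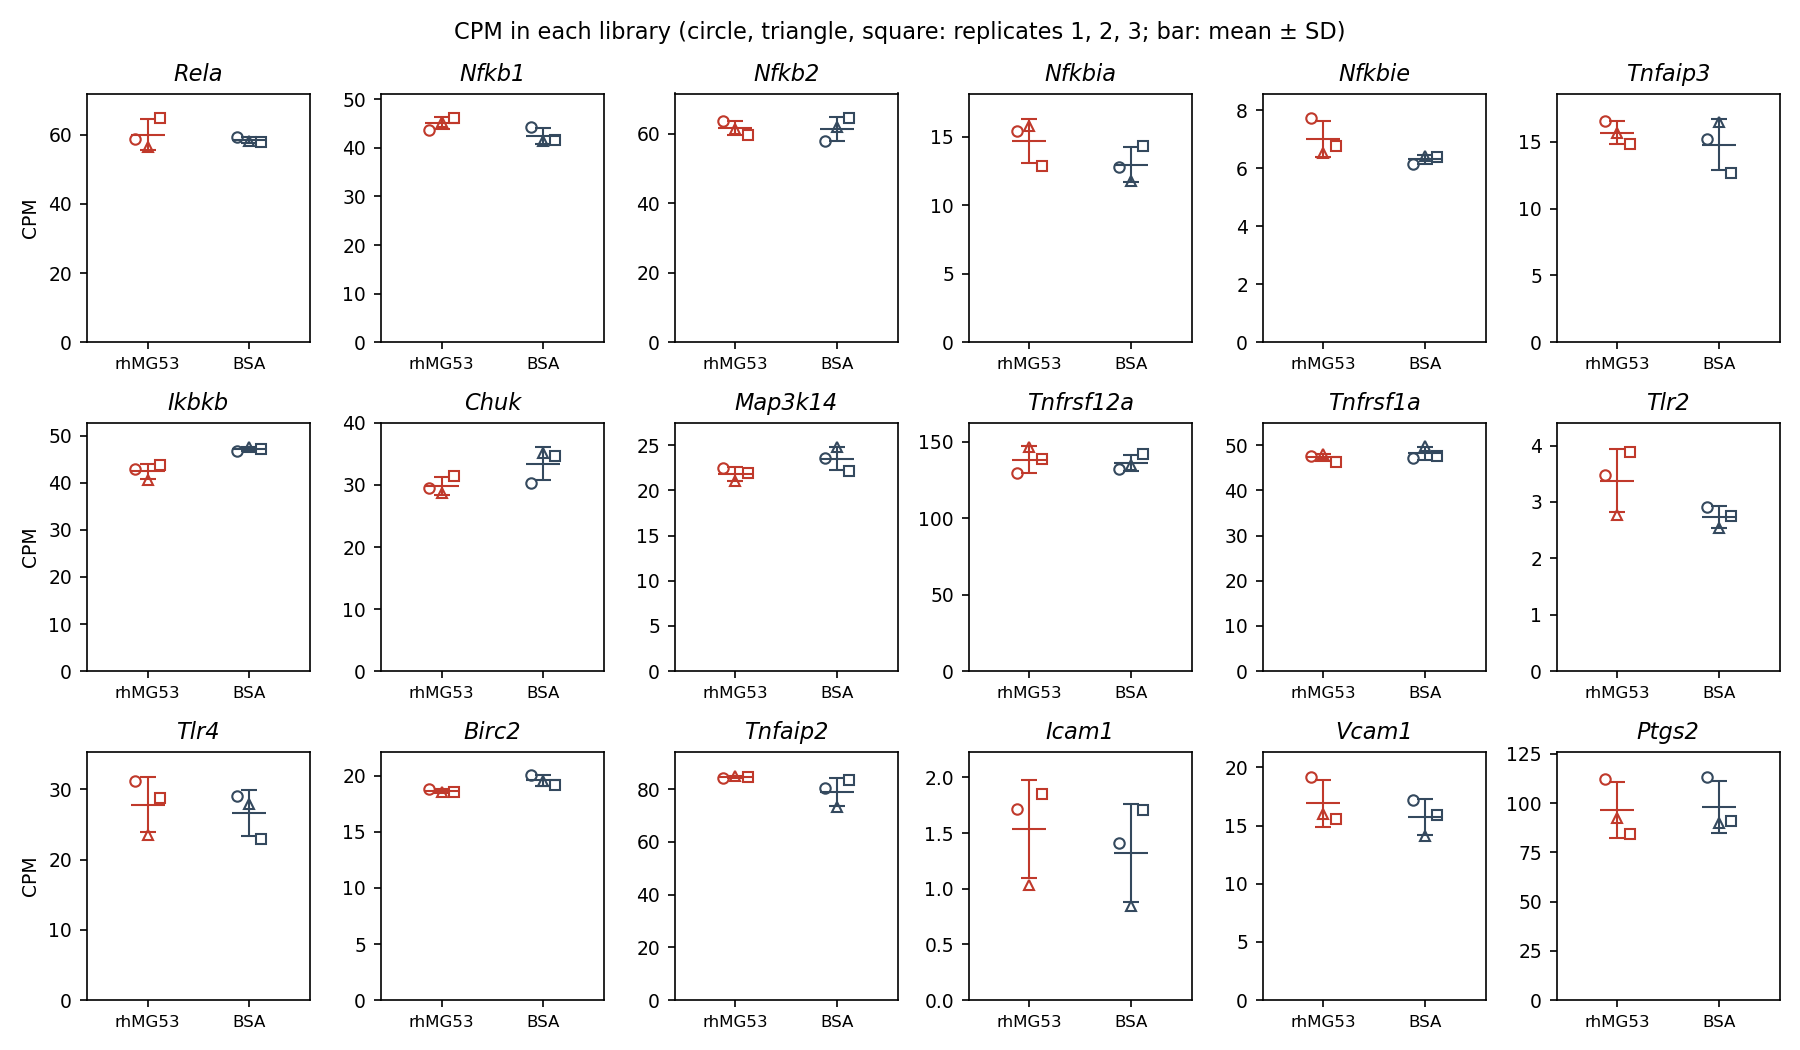
CPM of 18 of the genes in each library, rhMG53 on the left and BSA on the right, with the mean ± SD of 3 libraries and axes from 0. Ikbkb and Birc2 show all rhMG53 points below the BSA points, Nfkbie and Tnfaip2 all above, and the other 14 overlap.

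Among the 9 receptor genes, Tnfrsf12a and Tnfrsf1a were the most abundant per kb, and none passed. Tnfrsf12a encodes Fn14, the receptor for the cytokine TWEAK, which drives muscle wasting and acts on myoblasts. It was at 129.6, 146.7 and 138.7 CPM with rhMG53 and at 132.2, 134.6 and 142.1 CPM with BSA, overlapping throughout (log2 fold change 0.02, interval -0.12 to 0.16). Per kb it reached 140.6 ± 8.71 CPM with rhMG53 and 138.5 ± 5.23 CPM with BSA, the highest of all 41 genes. With the union of exons as the length it stood at 71.1 CPM per kb over all libraries, still the highest. Tnfrsf1a, the broadly expressed TNF receptor, was at 47.6, 48.0 and 46.4 CPM with rhMG53 and at 47.1, 49.9 and 47.5 CPM with BSA (-0.02, interval -0.16 to 0.11). Tnfrsf1b, the more restricted TNF receptor, was lower, at 14.5 to 15.4 CPM with rhMG53 and 13.1 to 15.7 CPM with BSA (0.09). The interleukin 1 receptor Il1r1 was at 6.56, 5.50 and 7.41 CPM with rhMG53 and at 8.44, 7.17 and 7.03 CPM with BSA, with rhMG53 replicate 3 inside the BSA range (-0.22, interval -0.54 to 0.09). Its partner chain Il1rap ranged from 5.72 to 7.72 CPM with rhMG53 and from 6.70 to 8.66 CPM with BSA (-0.14).

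Toll-like receptors were present at low to moderate levels. Tlr4, the receptor for bacterial lipopolysaccharide, was at 31.1, 23.5 and 28.8 CPM with rhMG53, against 29.1, 27.9 and 22.9 CPM with BSA. Both groups spanned nearly the same range (log2 fold change 0.06, interval -0.20 to 0.32). Tlr2, the receptor for bacterial lipopeptides, had the highest log2 fold change of the 41, at 3.48, 2.78 and 3.88 CPM with rhMG53 and 2.91, 2.54 and 2.75 CPM with BSA. Replicate 2 of rhMG53 fell within the BSA range, and the value of 0.30 (SE 0.178, interval -0.09 to 0.69) did not pass (edgeR adjusted p = 0.965). The Tlr2 libraries held only 45 to 69 counts each. Tlr3, which senses double-stranded RNA, stood at 2.12 to 2.72 CPM with rhMG53 and at 2.08 to 2.65 CPM with BSA (0.04). Cd14, the lipopolysaccharide co-receptor of myeloid cells, had 10 to 23 counts per rhMG53 library and 15 to 17 per BSA library (0.08, interval -0.70 to 0.86). Fewer cells of a type and less RNA per cell cannot be told apart in such bulk libraries. The 12 leukocyte markers summed to 11.3 to 16.01 CPM with rhMG53 and to 12.1 to 13.8 CPM with BSA. Most of that sum came from Itgam (4.36 to 5.40 CPM with rhMG53, 4.29 to 5.12 CPM with BSA), Laptm5 (2.77 to 4.14 CPM with rhMG53, 3.41 to 4.12 CPM with BSA) and Mrc1 (1.51 to 2.77 CPM with rhMG53, 1.87 to 2.52 CPM with BSA). C1qb was at 0 in all 6 libraries, and Ptprc reached at most 0.0504 CPM with rhMG53 and 0.113 CPM with BSA. Lyz2 was at 3.97 CPM in rhMG53 replicate 2 and at 0.858 CPM or less in the other libraries. That library also held the highest levels of Cd14 (1.25 CPM) and of the leukocyte markers Laptm5 (4.14 CPM) and Cd68 (1.36 CPM). Other markers went the other way there. Itgam, at 4.36 CPM, was the lowest of the rhMG53 libraries, Mrc1 stood at 1.74 CPM and Ptprc had 0 counts. The part of leukocyte RNA in that library was not tested.

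None of the 9 adaptors and ligases that carry the signal to the kinases passed, with 4 positive and 5 negative log2 fold changes, Ripk1 turning positive (0.00482) when scaled by library size alone. Irak1, the abundant kinase of the interleukin 1 and Toll-like receptor branch, was at 65.8, 69.8 and 67.1 CPM with rhMG53 and at 64.2, 65.4 and 71.0 CPM with BSA (log2 fold change 0.02, interval -0.13 to 0.16). Irak4, which acts just before it, stood at 3.59 to 4.64 CPM with rhMG53 and 4.12 to 4.81 CPM with BSA (-0.07). Myd88, the shared adaptor of that branch, was at 6.31, 7.68 and 8.22 CPM with rhMG53 and at 7.46, 9.09 and 8.74 CPM with BSA (-0.19, interval -0.48 to 0.11). Of the TRAF genes, Traf2, which serves TNF receptors, ranged from 21.4 to 25.0 CPM with rhMG53 and from 18.8 to 24.3 CPM with BSA (0.09). Traf6, which serves interleukin 1 and Toll-like receptors, ranged from 18.3 to 25.8 CPM with rhMG53 and from 17.97 to 22.5 CPM with BSA (0.01), with rhMG53 replicate 1 highest. Traf1, an NF-kB target itself, was low, with 7 to 19 counts per rhMG53 library and 13 to 21 per BSA library (-0.34, interval -1.13 to 0.44). The ubiquitin ligase gene Birc2 was at 18.8, 18.5 and 18.5 CPM with rhMG53 and at 20.1, 19.5 and 19.1 CPM with BSA. The groups did not overlap, and the level with rhMG53 was 0.95 times that with BSA (log2 fold change -0.07, interval -0.23 to 0.09, edgeR adjusted p = 0.983). Its neighbour and paralog Birc3, which NF-kB induces in many cells, was at 4.99, 5.01 and 4.87 CPM with rhMG53 and at 4.37, 5.02 and 5.22 CPM with BSA (0.03, interval -0.27 to 0.33). Ripk1, the kinase at the TNF receptor, ranged from 10.02 to 11.3 CPM with rhMG53 and from 9.18 to 11.9 CPM with BSA (-0.01).

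The 3 feedback genes all had small positive log2 fold changes, and none passed. Tnfaip3 encodes A20, a ubiquitin editor that NF-kB induces and that shuts the pathway off. It was at 16.5, 15.7 and 14.8 CPM with rhMG53 and at 15.2, 16.5 and 12.7 CPM with BSA (log2 fold change 0.08, SE 0.106, interval -0.15 to 0.32). Tnip1, which encodes a partner of A20, was the most abundant of the feedback genes, at 113.2, 120.0 and 117.1 CPM with rhMG53 and at 111.3, 118.6 and 113.6 CPM with BSA. It had the narrowest interval of the 41 genes, -0.10 to 0.15 around 0.03. Zc3h12a, which encodes the ribonuclease Regnase-1 that degrades inflammatory mRNAs, ranged from 16.6 to 19.0 CPM with rhMG53 and from 14.7 to 19.5 CPM with BSA (0.04).

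Of 6 cell-bound and intracellular targets of NF-kB none passed, with 5 positive log2 fold changes. Tnfaip2, a TNF-induced gene, was at 84.1, 85.1 and 84.5 CPM with rhMG53, against 80.3, 73.2 and 83.6 CPM with BSA. The rhMG53 libraries were tightly grouped and all above the BSA libraries, and the log2 fold change was 0.10 (SE 0.0642, interval -0.04 to 0.24, edgeR adjusted p = 0.973). Sod2, the mitochondrial superoxide dismutase, was at 112.0, 122.6 and 118.9 CPM with rhMG53 and at 111.8, 120.1 and 112.3 CPM with BSA (0.04, interval -0.10 to 0.17). The adhesion gene Icam1 was low, at 1.72, 1.03 and 1.85 CPM with rhMG53 and at 1.41, 0.847 and 1.70 CPM with BSA. Replicate 2 was the lowest library of either group for Icam1, and the groups overlapped (0.21, interval -0.47 to 0.88). Vcam1, an adhesion gene known from satellite cells and fibro-adipogenic progenitors, was at 19.2, 16.01 and 15.5 CPM with rhMG53 and at 17.2, 14.1 and 15.9 CPM with BSA (0.10, interval -0.14 to 0.34). The 10 markers of fibro-adipogenic cells and fibroblasts summed to 72.8 to 82.3 CPM with rhMG53 and to 66.4 to 77.3 CPM with BSA, with Tcf21 at 0 in all 6 libraries. Of these markers 6 were tested, none passed, and 5 had positive log2 fold changes (median 0.16). For Dcn (log2 fold change 0.19) and Col15a1 (0.56) every rhMG53 library lay above every BSA library. Such a separation was seen in 5.95% of all tested genes. The interval was -0.0031 to 0.39 for Dcn and -0.14 to 1.26 for Col15a1. Col15a1 held only 8 to 25 counts per library. The part of fibro-adipogenic cells and fibroblasts in the Vcam1 level was not tested.

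The prostaglandin genes differed more between libraries than between groups. Ptgs2, which encodes the inducible cyclooxygenase COX-2, was at 112.2, 92.5 and 84.4 CPM with rhMG53 and at 113.1, 89.8 and 90.7 CPM with BSA. Replicate 1 was high in both groups. The groups overlapped and the log2 fold change was -0.02 (SE 0.113, interval -0.27 to 0.23). Within groups Ptgs2 varied by 14.2%, which is 6.12 times its counting error and the largest such ratio among the 41. Ptges, which encodes the enzyme that completes prostaglandin E synthesis, was at 5.85, 4.90 and 6.60 CPM with rhMG53 and at 5.52, 3.61 and 5.93 CPM with BSA (0.19, interval -0.22 to 0.61).

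Log2 fold changes of members with and without a motif match are given as a description, and their difference was not tested. The 13 genes with a match in their windows had a median log2 fold change of 0.04, with 11 positive values, a range of -0.40 to 0.30 and none called. The 21 with a window and no match had a median of -0.01 and 10 positive values. Some of these signs turned when a library was left out. With a match these were Nfkb2, Bcl3, Tlr3, Irak1 and Tnfaip3, and genes without a match, such as Rela and Traf6, turned as well. Genes with a match included some that NF-kB is known to induce as feedback, namely Nfkbia, Nfkbie, Nfkb2, Tnfaip3 and Tnip1. Their log2 fold changes lay between 0.01 and 0.18. Others that NF-kB induces had a window and no match, among them Zc3h12a (0.04), Birc3 (0.03), Icam1 (0.21), Ptges (0.19), Ptgs2 (-0.02) and Traf1 (-0.34). Rel had a match and the lowest value, -0.40.

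No other signalling gene of the pathway passed either. Of 42 further signalling genes 39 were tested, 0 passed, 2 were higher and 1 was lower at an unadjusted p under 0.05 in edgeR (2.98% and 2.22% of all tested genes), and the median log2 fold change was -0.02. The 2 higher ones encode Toll-like receptor adaptors. Ticam1, which encodes TRIF, the adaptor of Tlr3 and Tlr4, was at 13.1, 12.3 and 13.5 CPM with rhMG53, against 10.7, 11.1 and 10.4 CPM with BSA (0.27, SE 0.0925, edgeR adjusted p = 0.935). Tirap, which bridges Tlr2 and Tlr4 to Myd88, was at 11.5, 11.8 and 12.9 CPM with rhMG53, against 10.5, 10.6 and 9.89 CPM with BSA (0.22, SE 0.0967, edgeR adjusted p = 0.950). In both genes every rhMG53 library lay above every BSA library, as in 5.95% of all tested genes. Pdlim2, which encodes a ubiquitin ligase that directs the destruction of nuclear Rela, was at 14.8, 15.1 and 15.9 CPM with rhMG53 and at 17.4, 16.2 and 19.7 CPM with BSA (-0.22, SE 0.0933, edgeR adjusted p = 0.950). Every rhMG53 library lay below every BSA library for Pdlim2, as in 4.83% of all tested genes.

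Of 24 secreted targets 16 were tested and 0 passed, with 8 higher and 0 lower at an unadjusted p under 0.05 in edgeR (2.98% and 2.22% of all tested genes). These were Cxcl1, Ptx3, Mmp3, Csf1, Cxcl5, C3, Mmp13 and Lcn2. The 16 had a median log2 fold change of 0.28, against 0.03 for the 41 components. The filter can keep genes that reach the count minimum in 1 group alone. The lowest count among the 16 was 11, for Mmp13 in BSA replicate 3. The list was drawn up with earlier results of these data known. Its counts at an unadjusted p under 0.05 and its median are therefore descriptions, and the share over all tested genes is no test of them. The neutrophil chemokine gene Cxcl1 was at 23.1, 22.4 and 20.6 CPM with rhMG53, against 15.4, 14.3 and 13.1 CPM with BSA, with no overlap (0.62, SE 0.0897, edgeR adjusted p = 0.0881). Its window holds a kappa B match, shown here with its flanks. Tested secreted targets with a match had a median log2 fold change of 0.29 (5 genes), and those with a window and no match, among them C3, Lcn2, Mmp3 and Mmp13, had 0.31 (7 genes).
Cxcl1, match at chr5:90891174-90891184, plus strand: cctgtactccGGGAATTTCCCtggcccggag
Ptx3, which encodes the secreted pattern-recognition protein pentraxin 3, was at 8.88, 7.08 and 7.76 CPM with rhMG53, against 3.40, 4.18 and 4.45 CPM with BSA, also with no overlap (0.99, edgeR adjusted p = 0.111). In 5.95% of all tested genes every rhMG53 library lay above every BSA library. The complement gene C3 was at 36.3, 28.8 and 30.1 CPM with rhMG53 and at 29.6, 26.4 and 20.6 CPM with BSA (0.31, SE 0.129, edgeR adjusted p = 0.946). Mmp13, a collagenase gene, was at 1.92, 1.74 and 1.27 CPM with rhMG53 and at 1.06, 1.35 and 0.604 CPM with BSA. Lcn2, which encodes an iron-scavenging lipocalin, was at 1.51, 3.32 and 1.85 CPM with rhMG53 and at 1.19, 1.58 and 1.43 CPM with BSA, its high value lying in rhMG53 replicate 2, the library of high Lyz2. Leaving out each library in turn, the median log2 fold change of the secreted targets ran from 0.21 (without rhMG53 replicate 1) to 0.36 (without BSA replicate 1). The matrix protease gene Mmp3 was at 14.2, 17.8 and 16.7 CPM with rhMG53 and at 12.3, 12.4 and 12.9 CPM with BSA (0.37). The macrophage growth factor gene Csf1 was at 385.7, 345.3 and 338.8 CPM with rhMG53, against 322.9, 280.8 and 282.5 CPM with BSA (0.27). The chemokine gene Cxcl5 was at 11.2, 6.86 and 7.30 CPM with rhMG53, against 5.79, 6.04 and 4.23 CPM with BSA (0.66). Each had an edgeR adjusted p = 0.935. For Mmp3, Csf1 and Cxcl5 every rhMG53 library lay above every BSA library, as in 5.95% of all tested genes. The main NF-kB-activating cytokines had few or no counts. Tnf had 0 counts in all 6 libraries, Il1a at most 0.0544 CPM with rhMG53 and 0.169 CPM with BSA, and Il1b at most 0.869 CPM with rhMG53 and 0.508 CPM with BSA.

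**Figure D4:**
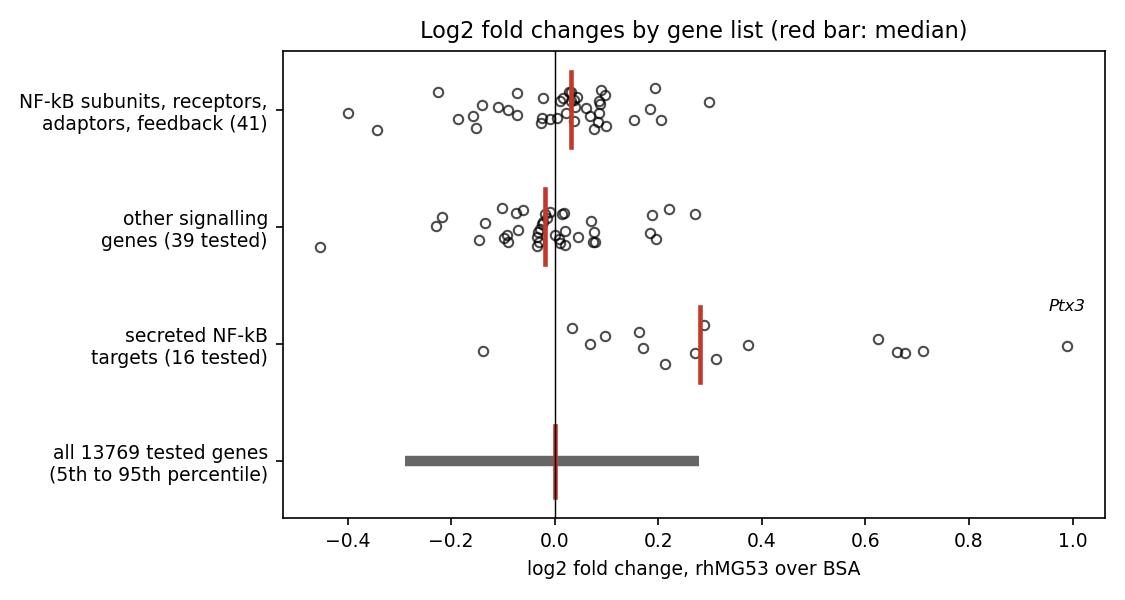
Log2 fold changes, rhMG53 over BSA, of the 41 components, of 39 other signalling genes, of 16 secreted targets and of all 13769 tested genes (bar from the 5th to the 95th percentile, -0.29 to 0.28), with the median of each set in red. The medians are 0.03, -0.02, 0.28 and 0.00.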

How the data were processed

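The authors deposited whole-number counts per NCBI gene ID for 6 libraries, made with the mm10 build and with STAR, featureCounts and edgeR, per the submitters' processing notes. No label or header states the annotation, the strand setting or any filter. By GENCODE M21 exons, 12 of the 41 genes share bases with a gene on the opposite strand and 3 with a gene on the same strand. Symbols came from RefSeq (25275 IDs) and GENCODE (18 more), leaving 1886 IDs unnamed. The 41 members and all lists were chosen with earlier results of these data known.

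Genes were kept with filterByExpr (minimum count 10, minimum total 15), scaled with TMM and tested with edgeR 4.0.16 (quasi-likelihood F test, treatment as the only term, 2-sided, R 4.3.3), with Benjamini-Hochberg adjusted p-values computed across the 13769 genes that remained and called at 0.05. The fit was tested on simulated counts. CPM uses TMM-scaled totals. Levels per kb divide CPM by the longest principal GENCODE transcript. Windows were read from RefSeq. Values per library are given for 15 set members and for members whose groups do not overlap. They are also given for members, other signalling genes and secreted targets with an unadjusted p under 0.05. Some others were chosen after their values were seen. Alternatives were RLE factors, library size alone, DESeq2 1.42.0, limma voom (limma 3.58.1), the replicate number as a term, fitting without the low-count filter, and leaving out each library. A further alternative, added after seeing the data, took the union of exons as the length.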

Additional observations from a re-analysis of the deposited data

How the results depend on the processing

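No alternative called any of the 41 genes, and the lowest adjusted p of a member ran from 0.789 (without BSA replicate 3) to 1 (DESeq2). Over all genes, the calls numbered 3 as reported, 6 with no filter on low counts, 5 in DESeq2, 0 with the replicate block and 0 to 4 when each library was left out. No label says that same-numbered libraries share a mouse, culture or day, so the replicate numbers were not taken as pairs. Deviations from the group mean correlated at 0.19, -0.13 and -0.15 between same-numbered libraries. The highest correlation, 0.30, was between rhMG53 replicate 2 and BSA replicate 3. With 3 libraries per group such correlations cannot exclude pairing. With the replicate block Ikbkb kept an unadjusted p of 0.0453. Members lower at an unadjusted p under 0.05 numbered 0 with no filter on low counts, 0 in DESeq2 and 0 to 2 when each library was left out, and members higher 0 to 1. Rel entered this count without rhMG53 replicate 3 (log2 fold change -0.70) and without BSA replicate 3 (-0.57), Chuk without BSA replicate 1, and, among higher members, Tlr2 without rhMG53 replicate 2 and Nfkbia without rhMG53 replicate 3. Ikbkb was negative in all 12 alternatives, and its unadjusted p ranged from 0.0266 (RLE size factors) to 0.0823 (DESeq2).

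Of 492 log2 fold changes of members recomputed, 35 turned sign, in 21 members. Ripk1 became 0.00482 with library size alone, and all others turned when a library was left out. Over the left-out libraries the log2 fold change ran from -0.036 to 0.041 for Nfkb2, from -0.023 to 0.0804 for Rela, from -0.0086 to 0.17 for Relb, from -0.25 to 0.043 for Nfkbiz, from -0.099 to 0.14 for Bcl3, from -0.039 to 0.00036 for Tnfrsf1a, from -0.023 to 0.066 for Tnfrsf12a, from -0.048 to 0.14 for Tlr3, from -0.037 to 0.17 for Tlr4, from -0.28 to 0.37 for Cd14, from -0.012 to 0.061 for Irak1. It ran from -0.14 to 0.039 for Irak4, from -0.11 to 0.0702 for Ripk1, from -0.0205 to 0.16 for Traf2, from -0.16 to 0.11 for Traf6, from -0.046 to 0.083 for Birc3, from -0.013 to 0.16 for Tnfaip3, from -0.051 to 0.14 for Zc3h12a, from -0.014 to 0.42 for Icam1, from -0.0033 to 0.17 for Vcam1, from -0.15 to 0.097 for Ptgs2. Among the 20 members that held their sign, the range over all alternatives was -0.60 to -0.036 for Traf1, 0.015 to 0.32 for Ptges, -0.25 to -0.0049 for Il1rap and -0.70 to -0.21 for Rel. Depth limits the low members most, Traf1 and Cd14 having 96 counts each over the 6 libraries.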
